A study of Rattus norvegicus with 23 samples.

Results

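Differentiating CG4 cells that carried added Zfp488 were compared with differentiating CG4 cells that carried EGFP alone. The comparison takes the 4 libraries titled for Zfp488 and the 4 titled as the GFP-only control, chosen by their labels, out of 23 rat RNA-seq libraries in the series. CG4 is an immortalized line derived from rat brain oligodendroglia, and all 8 libraries come from it. The control cells were transduced with pCAG-IRES-EGFP and the others with pCAG-myc-Zfp488-IRES-EGFP, which makes myc-tagged Zfp488 and EGFP from 1 CAG promoter, a strong promoter that is active in most cell types. Both groups grew with bFGF and PDGF-AA and were then held for 3 days in SATO medium with high T3/T4 and CNTF. A further 4 CG4 libraries with pCAG-T7-Nkx2.2-IRES-EGFP under the same medium shared the fit, and 8 libraries of primary rat oligodendroglia, 4 proliferating and 4 differentiated for 3 days, served as a separate set. The titles call the libraries biological replicates without naming separate cultures, so the p-values speak only of the scatter among these libraries, which may be technical. The comparison asks which genes change when the level of Zfp488 is raised in differentiating oligodendroglia.

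As background, Zfp488 is a zinc finger transcriptional regulator found in oligodendroglia and is known as a partner of Olig2 that promotes oligodendrocyte differentiation. During that process progenitors leave the cell cycle, build processes from microtubules and actin, and switch on genes of myelin membrane proteins and lipids under Sox10 and Myrf. The transcription factor Nkx2.2 acts in the same lineage and is usually low in mature myelinating cells.

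Total counts ran from 29906831 to 49206479 per library, and 14811 genes had enough counts to be tested. Levels are CPM, counts scaled to library size with TMM factors, and changes are log2 fold changes ± SE of Zfp488 over control. Genes were called at an adjusted p under 0.05 (edgeR's quasi-likelihood test, Benjamini-Hochberg adjustment over all genes tested), with the replicate number as a pairing block. A count given as "without the block" is from the same fit with no pairing. Control and Zfp488 libraries of the same number resembled each other unevenly. Their deviations from the group means correlated at 0.57 and 0.69 for replicates 1 and 3. For replicates 2 and 4 the values were 0.28 and 0.19, against -0.56 to 0.15 for unlike numbers. As an example, Gfap, the intermediate filament of astrocytes, was at 1939, 1979.8, 216 and 685 CPM in control and 1221, 1585, 351 and 878 CPM with Zfp488, lowest in replicate 3 of both. In bulk RNA, fewer cells of a type and less RNA per cell cannot be told apart. Each of 16 oligodendroglial identity genes was above 1 CPM in at least 1 of the 8 libraries, with a summed level of 16160 to 24428 CPM in control and 23235 to 38918 CPM with Zfp488.

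Zfp488 itself (ENSRNOG00000057542) was read at 31.2, 35.1, 54.2 and 36.0 CPM in control replicates 1 to 4 and 122, 149.9, 162 and 186 CPM in the Zfp488 libraries. Each Zfp488 library lay above every control library, and the log2 fold change was 2.01 ± 0.13 (adjusted p = 2.35e-05). Counts of the introduced and the endogenous gene were not separated, and the species of the introduced sequence is not given in the sources used here.

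With Zfp488, 3576 of 14811 genes were called, 24.1% of those tested. Higher genes numbered 2071 (14% of those tested) and lower genes 1505 (10.2%). Counts of rises and falls in the lists below are to be read against these shares. Without the block 1339 genes were called (9.04%), 873 higher (5.89%) and 466 lower (3.15%), and each of these was also called with the block in the same direction. Most changes were small, with a median log2 fold change of 0.59 among higher and -0.41 among lower genes. In 1265 genes (8.54% of those tested) every Zfp488 library lay above every control, and in 936 (6.32%) every one lay below. The 20 largest rises and 20 largest falls, named in part below, had to average 5 CPM or more and show no overlap to be picked. They include Opalin, Cdc42ep2, Col6a2, Lpar3, Kcng1, Ror2, St8sia1, Lrrtm4, Ptch1 and Col4a1. For such genes the lack of overlap is no added support. Large changes were mainly rises: 539 genes rose and 94 fell by at least 1 on the log2 scale (351 and 50 without the block), and 218 and 32 of these averaged 5 CPM or more. The genes that rose by at least 1 had a median control level of 1.54 CPM, against 19.9 CPM for all genes tested. Leaving out a library gave between 2169 calls (without Zfp488 replicate 2) and 3284, with 2236 without control replicate 3, and 1806 genes, 1171 higher and 635 lower, were called whichever of the 8 libraries was left out.

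**Figure D1:**
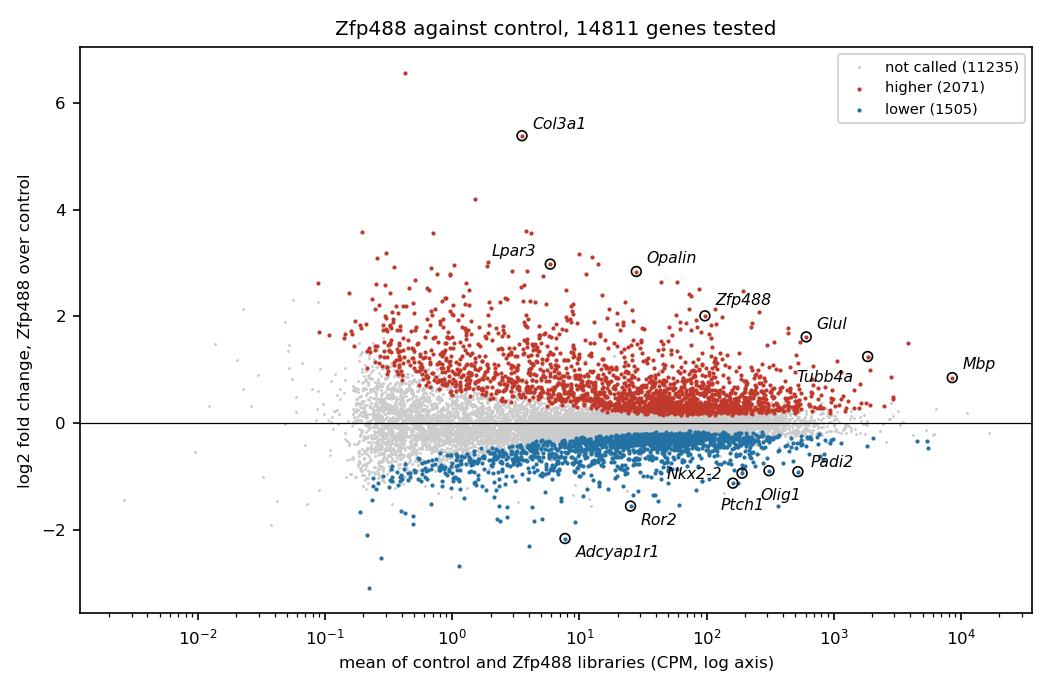
Mean level over the control and Zfp488 libraries (CPM, log axis) against the log2 fold change of Zfp488 over control, 1 point per gene tested, with called genes in red (2071 higher) and blue (1505 lower). The largest rises sit at low levels, while Mbp rose at a level far to the right.

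Upstream sequence was read for 4 genes whose changes recur below, 2 that rose (the myelin gene Opalin and Lpar3, a receptor of lysophosphatidic acid) and 2 that fell (Adcyap1r1, the receptor of the neuropeptide PACAP, and Nkx2-2, which encodes Nkx2.2). Each is the 250 bases before the RefSeq start as the reference lists it, in the build GRCr8, 5′ to 3′ on the gene's strand. The listed starts were not checked. Near its end the Lpar3 window holds an ATG that may be the coding start, so its motifs may lie outside the promoter. Capitals mark E-boxes (CANNTG, the core bound by bHLH factors such as Olig2) and the Sox-type core ACAAAG on either strand (reverse complement CTTTGT). The counted reads were aligned to rn6, so these coordinates apply to GRCr8 only.
Opalin, chr1:249858191-249858440, minus strand: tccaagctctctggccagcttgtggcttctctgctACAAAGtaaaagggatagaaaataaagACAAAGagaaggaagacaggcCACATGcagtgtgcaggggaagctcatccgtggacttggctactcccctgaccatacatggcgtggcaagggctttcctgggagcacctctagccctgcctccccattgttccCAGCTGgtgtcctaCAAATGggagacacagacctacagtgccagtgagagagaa
Lpar3, chr2:237809095-237809344, plus strand: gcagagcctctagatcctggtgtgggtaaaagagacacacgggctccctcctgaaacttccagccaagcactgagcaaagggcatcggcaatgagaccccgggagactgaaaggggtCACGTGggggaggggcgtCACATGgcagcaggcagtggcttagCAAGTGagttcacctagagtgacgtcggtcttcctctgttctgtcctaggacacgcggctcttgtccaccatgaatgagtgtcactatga
Adcyap1r1, chr4:85923921-85924170, plus strand: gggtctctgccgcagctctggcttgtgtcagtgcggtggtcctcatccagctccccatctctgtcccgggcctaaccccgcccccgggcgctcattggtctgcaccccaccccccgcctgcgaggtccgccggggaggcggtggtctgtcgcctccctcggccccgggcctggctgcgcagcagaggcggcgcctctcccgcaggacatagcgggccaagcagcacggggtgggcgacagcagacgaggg
Nkx2-2, chr3:155075623-155075872, minus strand: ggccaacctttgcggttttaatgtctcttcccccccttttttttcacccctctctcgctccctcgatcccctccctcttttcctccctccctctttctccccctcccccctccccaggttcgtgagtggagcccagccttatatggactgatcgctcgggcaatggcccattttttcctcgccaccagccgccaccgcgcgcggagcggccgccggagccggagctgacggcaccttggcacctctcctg
The Opalin window holds 3 E-boxes and 2 Sox cores, and the Lpar3 window 3 E-boxes and 0 Sox cores. The windows of Adcyap1r1 and Nkx2-2 hold 0 of either. Of 12705 tested genes with a symbol of their own, 10067 matched a promoter, and 56.4% of these windows hold an E-box and 11.5% a Sox core. The shares were 56.0% and 11.9% among 1538 higher genes and 57.3% and 12.7% among 1065 lower genes. Among genes that changed by at least 1 on the log2 scale they were 62.3% and 16.8% (363 higher) and 67.2% and 15.5% (58 lower). The windows of these strongly changed genes had a median GC content of 58.0% (higher) and 56.2% (lower), against 60.4% for all genes tested. Its part in the shares was not tested. The shares describe letters and not binding.

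Most genes of myelin proteins rose. In the list of structural myelin proteins 10 of 15 tested members rose and 1 fell (5 and 0 without the block), and the median log2 fold change was 0.85, against -0.02 over all genes tested. Opalin, a small transmembrane protein of oligodendrocytes, was read at 6.33, 7.76, 3.96 and 7.52 CPM in control replicates 1 to 4 and 29.2, 54.4, 33.8 and 81.1 CPM in the Zfp488 libraries. All Zfp488 libraries lay above all controls, replicate 4 highest (2.84 ± 0.59, adjusted p = 0.00649).

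Mag, an adhesion protein of the inner myelin membrane, stood at 838, 936, 2010.0 and 1384 CPM in control and 1506, 2065, 3686 and 3131 CPM with Zfp488. Replicates 3 and 4 were the highest in both groups, and each Zfp488 library exceeded its own control although the groups overlapped (1.00 ± 0.11, adjusted p = 0.0003, and 0.13 without the block). The same held for Mbp, the cytoplasmic protein that compacts myelin, at 4251 to 8351 CPM in control and 8315 to 14610.4 CPM with Zfp488 (0.85 ± 0.11, adjusted p = 0.000447, and 0.129 without the block). The tetraspanin gene Cd82 rose by 0.96 ± 0.14 (adjusted p = 0.000905). Pmp22, which is best known from peripheral myelin, rose by 0.54 ± 0.08 (adjusted p = 0.00119). Omg, a surface glycoprotein that limits neurite growth, was the exception, at 42.1, 29.8, 35.1 and 37.5 CPM in control and 35.3, 11.8, 11.8 and 6.79 CPM with Zfp488. It was lower in every pair, though Zfp488 replicate 1 lay within the control range (-1.34 ± 0.27, adjusted p = 0.00528, and 0.0879 without the block). Cd9 (0.05 ± 0.08, adjusted p = 0.699), Cldn11 (-0.32 ± 0.11, adjusted p = 0.0576), Tspan2 (0.37 ± 0.13, adjusted p = 0.0539) and Pllp (0.67 ± 0.23, adjusted p = 0.0557) did not pass.

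Of the enzymes and surface proteins of mature oligodendrocytes, 15 of 30 tested members rose and 3 fell (6 and 2 without the block). Aspa, the enzyme that cleaves N-acetylaspartate, was read at 7.10, 5.59, 6.42 and 8.13 CPM in control and 18.7, 20.8, 15.8 and 22.3 CPM with Zfp488. The groups lay apart (1.51 ± 0.15, adjusted p = 0.00013). Gpr37, an orphan receptor of oligodendrocytes, stood at 6.52, 6.01, 10.2 and 14.0 CPM in control and 16.5, 16.1, 29.9 and 35.0 CPM with Zfp488, each Zfp488 library above every control (1.40 ± 0.11, adjusted p = 5.59e-05). Enpp6, a choline phosphodiesterase of newly formed oligodendrocytes, rose by 1.32 ± 0.19 (adjusted p = 0.00084), and S1pr5, a receptor of sphingosine 1-phosphate, by 1.88 ± 0.17 (adjusted p = 0.00011, and 0.0584 without the block). Against these, Apod, a lipid-binding lipocalin of mature glia, fell, with 60.3 to 75.1 CPM in control and 30.4 to 52.2 CPM with Zfp488 (-0.85 ± 0.18, adjusted p = 0.00654), and Plekhb1 fell as well (-0.76 ± 0.09, adjusted p = 0.00039).

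**Figure D2:**
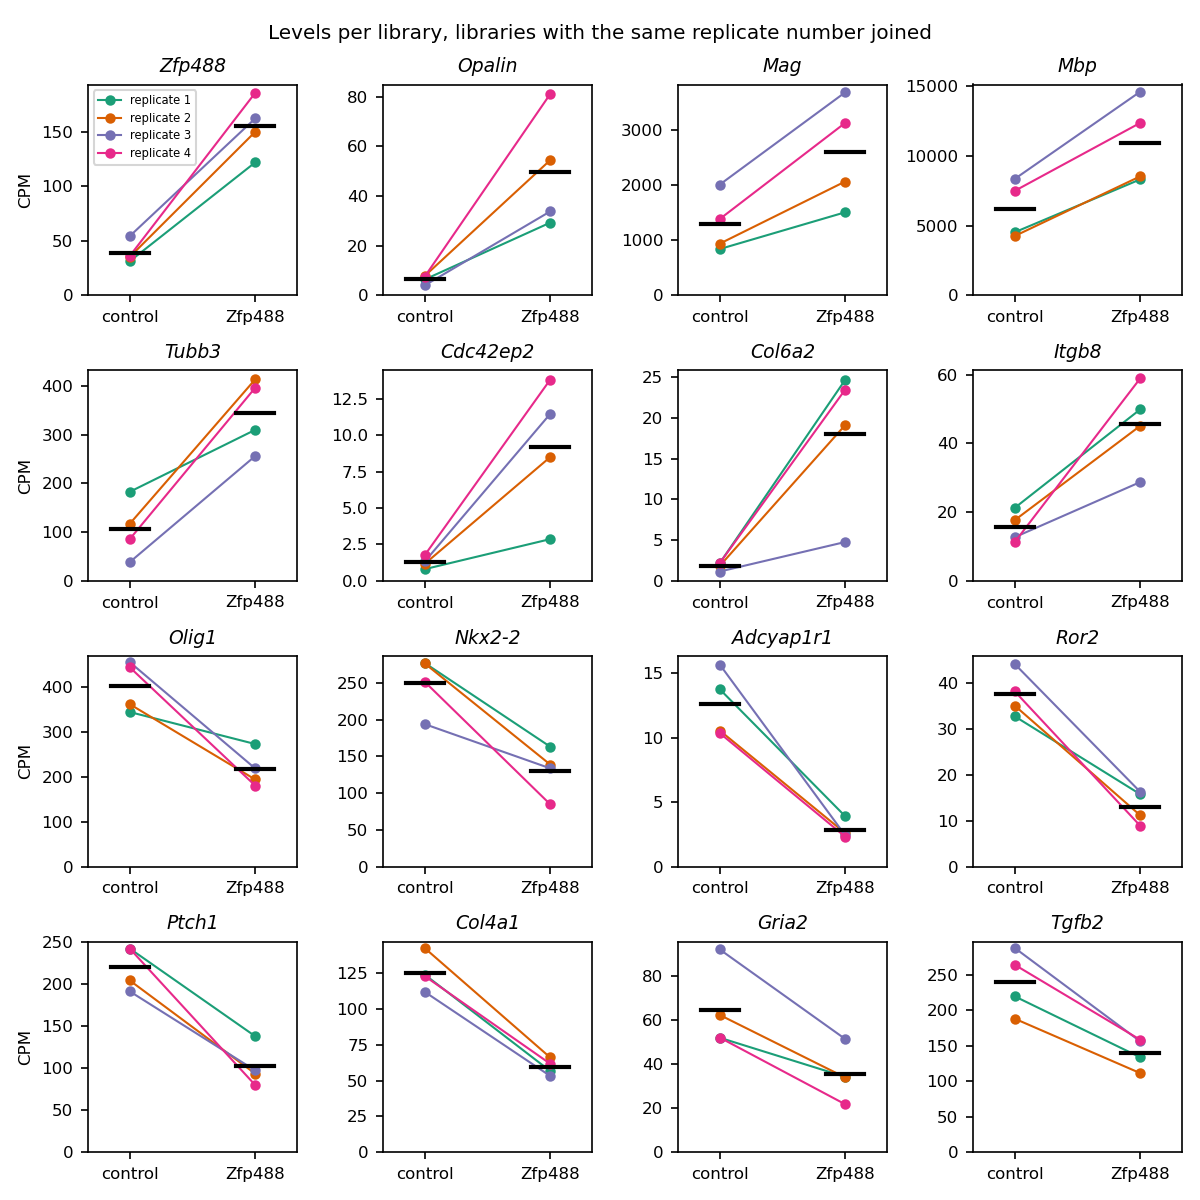
CPM per library for 16 named genes, with control left and Zfp488 right, libraries of the same replicate number joined and black bars at the group means (n = 4 each). Mbp shows the pairing: its groups overlap, yet all 4 lines rise.

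The transcription factors of the lineage split. Of this list, 7 of 35 tested members rose and 8 fell (4 and 4 without the block), with a median of -0.05 and 11 rises without control replicate 1. Olig1, a bHLH factor of the lineage, was read at 345, 362, 456 and 445 CPM in control replicates 1 to 4 and 274, 194, 219 and 181 CPM in the Zfp488 libraries. Every Zfp488 library was below every control (-0.89 ± 0.15, adjusted p = 0.00209). Its relative Olig2 stood at 371 to 517 CPM in control and 253 to 346 CPM with Zfp488, also without overlap (-0.51 ± 0.10, adjusted p = 0.00498, and 0.0836 without the block). Nkx2-2 went the same way, at 277, 277, 194 and 252 CPM in control and 163, 139, 134 and 84.9 CPM with Zfp488, with Zfp488 replicate 4 the lowest library (-0.93 ± 0.18, adjusted p = 0.00453).

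Tox, an HMG-box factor, fell, with 48.8 to 58.2 CPM in control and 16.3 to 26.1 CPM with Zfp488 (-1.33 ± 0.13, adjusted p = 0.000132), and Tcf4, an E-protein partner of Olig2, fell by less (-0.47 ± 0.07, adjusted p = 0.000885). Myrf, the membrane-tethered activator of myelin genes, was higher in all 4 Zfp488 libraries than in any control, at 596 to 740.4 CPM in control and 798 to 1266 CPM with Zfp488 (0.68 ± 0.13, adjusted p = 0.00336, just above 0.05 without the block). St18, a zinc finger factor of the Myt family, rose at a low level, at 0.543 to 0.708 CPM in control and 1.36 to 2.12 CPM with Zfp488 (1.45 ± 0.26, adjusted p = 0.00286), and Sox9, which acts earlier in gliogenesis, rose by 0.85 ± 0.13 (adjusted p = 0.0015). Sox10 did not pass (0.05 ± 0.07, adjusted p = 0.65), with 1507 to 1641 CPM in control and 1519.8 to 1769.7 CPM with Zfp488.

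Progenitor genes fell more often than they rose. Here 6 of 32 tested members rose and 13 fell (1 and 5 without the block), with a median of -0.25. Rlbp1, a retinaldehyde-binding protein, was read at 49.1, 53.9, 75.7 and 81.9 CPM in control and 34.3, 32.6, 40.3 and 32.1 CPM with Zfp488, with no overlap (-0.88 ± 0.11, adjusted p = 0.000405). Xylt1, which starts glycosaminoglycan chains, fell, with 101 to 141 CPM in control and 47.3 to 78.4 CPM with Zfp488 (-1.08 ± 0.21, adjusted p = 0.00421). The matrilin Matn4 (-0.92 ± 0.20, adjusted p = 0.00883), the secreted C1q-like protein C1ql1 (-0.74 ± 0.10, adjusted p = 0.000593) and the AMPA receptor auxiliary subunit Cacng4 (-0.70 ± 0.12, adjusted p = 0.00266) also fell. Not all of these fell in primary differentiation. There Rlbp1 (-0.48 ± 0.04) and Xylt1 (-0.97 ± 0.07) fell, Matn4 (2.37 ± 0.37) and Cacng4 (1.23 ± 0.05) rose, and C1ql1 did not pass (0.11 ± 0.15). Hes1, a repressor downstream of Notch, rose within this list (0.92 ± 0.16, adjusted p = 0.00225). The best known progenitor markers did not pass: Pdgfra, the PDGF receptor, was at 0.11 ± 0.10 (adjusted p = 0.497) and Cspg4, the NG2 proteoglycan, at 0.23 ± 0.25 (adjusted p = 0.538). Cspg4 was low in these cells, at 1.04 to 1.92 CPM in control and 0.950 to 2.80 CPM with Zfp488. Its mean in proliferating primary cells was 92.7 CPM. Of 53 cell cycle genes 3 rose and 1 fell (2 and 0 without the block), with 3 falls without Zfp488 replicate 1 and 0 without control replicate 1 or 3 or Zfp488 replicate 3 or 4, and Mki67 did not pass (-0.29 ± 0.11, adjusted p = 0.0947).

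Genes of microtubules, actin and their regulators rose widely. In the list of tubulins, actin regulators and intermediate filaments 25 of 52 tested members rose and 2 fell (14 and 1 without the block), with a median of 0.27. Of the 52, 14 members lay above all controls in every Zfp488 library, as did 8.54% of all genes tested. The list had 0 falls without control replicate 2 and 1 without control replicate 3 or Zfp488 replicate 4. Tubb4a, a beta-tubulin abundant in oligodendrocytes, was read at 998, 1033, 1220.2 and 1064 CPM in control replicates 1 to 4 and 1949.9, 2576, 3033 and 2908 CPM in the Zfp488 libraries. The lowest Zfp488 library was well above the highest control (1.25 ± 0.17, adjusted p = 0.000755). Tubb3, a beta-tubulin typical of neurons, stood at 183, 117, 38.5 and 85.8 CPM in control and 309.7, 413, 256 and 396 CPM with Zfp488, again without overlap (1.80 ± 0.29, adjusted p = 0.00173). Tubb4b rose by 0.66 ± 0.08 (adjusted p = 0.000335), the actin-severing protein gelsolin (Gsn) by 1.11 ± 0.14 (adjusted p = 0.000527) and the actin-binding calponin gene Cnn3 by 0.46 ± 0.06 (adjusted p = 0.000506).

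Named regulators and effectors of the small GTPases that set actin assembly included both rises and falls. Cdc42ep2, an effector of Cdc42, was read at 0.807, 1.17, 1.33 and 1.77 CPM in control replicates 1 to 4 and 2.87, 8.49, 11.5 and 13.8 CPM in the Zfp488 libraries. The groups did not overlap, and replicate 1 was the lowest library of each (2.75 ± 0.26, adjusted p = 0.000123). Chn2, a GTPase-activating protein for Rac, stood at 266 to 321 CPM in control and 477 to 913 CPM with Zfp488 (1.28 ± 0.14, adjusted p = 0.000248), and the small GTPase gene Rhob at 361 to 495 CPM in control and 772 to 1108 CPM with Zfp488 (1.07 ± 0.15, adjusted p = 0.000681). The falls included the GTPase-activating proteins Arhgap42 (-0.80 ± 0.08, adjusted p = 0.000136), Arhgap39 (-0.50 ± 0.06, adjusted p = 0.000388), Arhgap35 (-0.49 ± 0.09, adjusted p = 0.00382) and Arhgap33 (-0.53 ± 0.10, adjusted p = 0.00346). Other actin-linked genes rose: the unconventional myosin Myo1d (2.07 ± 0.15, adjusted p = 3.56e-05), the WASP-interacting Wipf3 (2.24 ± 0.21, adjusted p = 0.00011) and the Ras-family GTPase Rras2 (2.09 ± 0.30, adjusted p = 0.000989). They belong to the 20 rises picked as largest, a pick limited to non-overlapping genes that averaged 5 CPM or more. Some genes at lower levels rose by more. Kank1, a protein that restrains actin polymerization at the cell edge, fell, with 215 to 270.0 CPM in control and 92.4 to 124 CPM with Zfp488 (-1.11 ± 0.09, adjusted p = 6.48e-05).

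**Figure D3:**
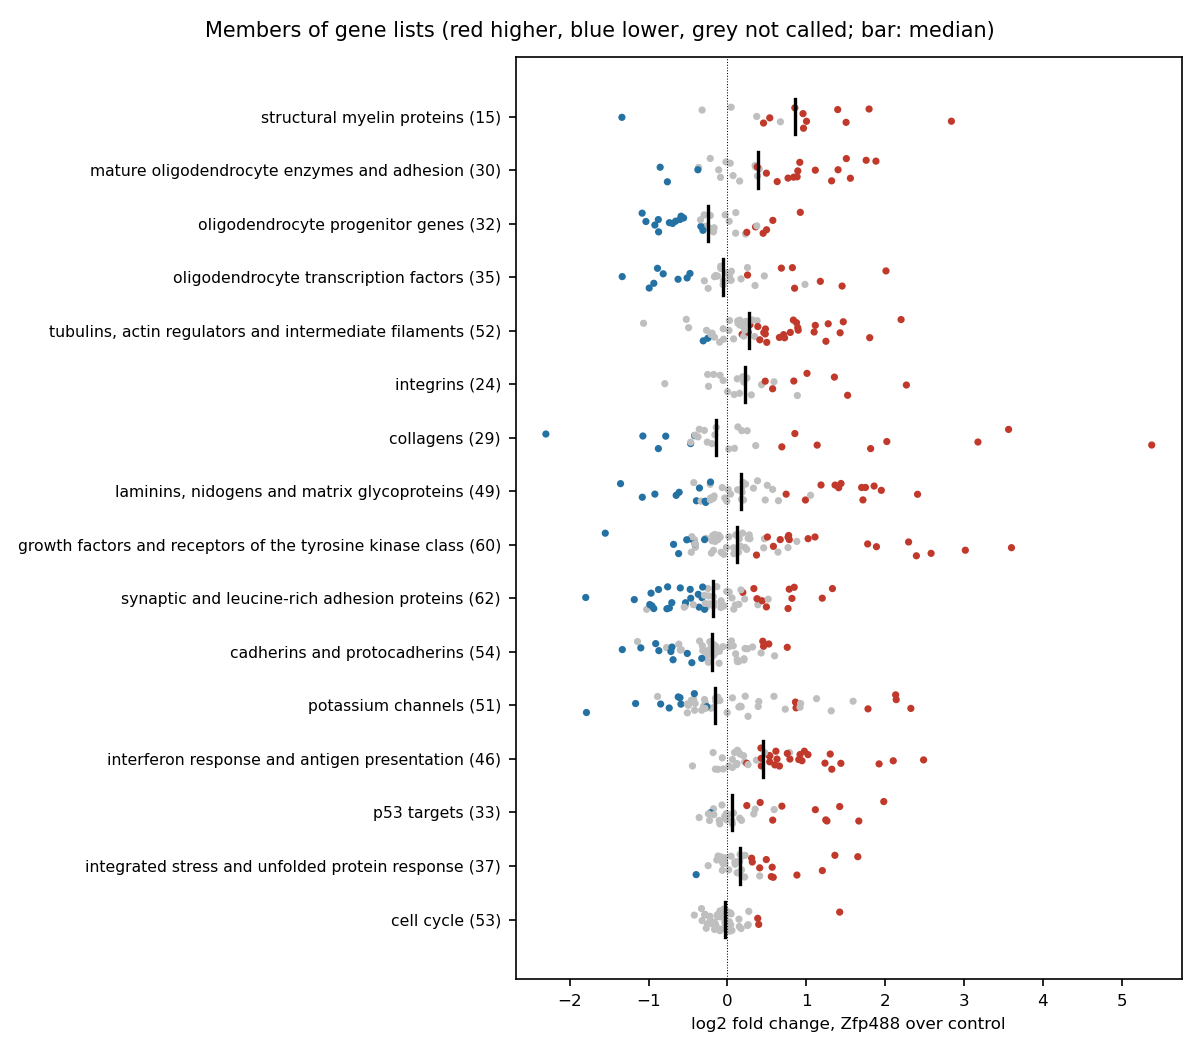
Log2 fold change of Zfp488 over control for the tested members of 16 lists (number tested in brackets), 1 point per gene, red called higher, blue called lower, grey not called, black bar the median. The medians of the structural myelin, interferon and tubulin lists lie to the right of 0, and those of the progenitor, synaptic adhesion and cadherin lists to the left.

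Matrix genes moved both ways. Of the collagens 8 of 29 tested members rose and 6 fell (5 and 3 without the block), with a median of -0.14. Without a library the falls numbered as few as 3 (without control replicate 2, 3 or 4 or Zfp488 replicate 2 or 4). Col4a1, a chain of the basement membrane collagen IV, was read at 124, 142, 112 and 123 CPM in control replicates 1 to 4 and 56.7, 66.1, 53.2 and 61.7 CPM in the Zfp488 libraries. The groups were far apart (-1.07 ± 0.07, adjusted p = 3.23e-05), and its partner chain Col4a2 fell too (-0.88 ± 0.12, adjusted p = 0.000813). Col6a2, a chain of the filamentous collagen VI, stood at 2.19, 1.85, 1.15 and 2.21 CPM in control and 24.7, 19.1, 4.78 and 23.5 CPM with Zfp488. It was higher in every Zfp488 library, with replicate 3 the lowest of both groups (3.18 ± 0.31, adjusted p = 0.000131). Col6a1, its partner chain, rose by 2.02 ± 0.34 (adjusted p = 0.00219). The fibrillar collagen genes Col3a1 and Col5a2 were near 0 in control, at 0.0452 to 0.208 CPM in control and 2.40 to 16.0 CPM with Zfp488 (5.38 ± 0.33, adjusted p = 2.35e-05) and 0.0452 to 0.175 CPM in control and 0.267 to 1.85 CPM with Zfp488 (3.57 ± 0.38, adjusted p = 0.000202). Col28a1 fell, with 2.15 to 9.38 CPM in control and 0.386 to 1.74 CPM with Zfp488 (-2.30 ± 0.23, adjusted p = 0.000148).

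Among laminins, nidogens and matrix glycoproteins 12 of 49 tested members rose and 10 fell (7 and 2 without the block), and the falls numbered 3 without control replicate 3, 4 without Zfp488 replicate 3, 5 without Zfp488 replicate 4 and 6 without control replicate 4 or Zfp488 replicate 2. The laminin beta 2 chain, Lamb2, rose by 1.41 ± 0.16 (adjusted p = 0.000323), fibronectin, Fn1, by 1.86 ± 0.20 (adjusted p = 0.000251), periostin, Postn, by 1.95 ± 0.29 (adjusted p = 0.00105) and nidogen 1, Nid1, by 1.44 ± 0.20 (adjusted p = 0.000721). Fbln7, a fibulin, fell, with 13.7 to 19.2 CPM in control and 4.89 to 7.96 CPM with Zfp488 (-1.36 ± 0.14, adjusted p = 0.000148). Of the integrins, the receptors of these proteins, 7 of 24 tested members rose and 0 fell (3 and 0 without the block), with a median of 0.23. Itgb8, which binds latent TGF-beta, was read at 21.3, 17.7, 12.7 and 11.3 CPM in control and 49.9, 45.1, 28.8 and 58.9 CPM with Zfp488. Its groups did not overlap (1.52 ± 0.16, adjusted p = 0.000231). Itga5, a chain of the fibronectin receptor, rose by 2.27 ± 0.28 (adjusted p = 0.000405) from a low level, and Itgb3 by 1.36 ± 0.27 (adjusted p = 0.00536). The surface proteoglycans Sdc4 (1.56 ± 0.15, adjusted p = 0.000132) and Gpc4 (1.30 ± 0.22, adjusted p = 0.00211) rose as well. Their list, proteoglycans and glycosaminoglycan enzymes, moved both ways: 13 of 57 tested members rose and 8 fell (3 and 6 without the block).

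P3h2, which hydroxylates collagen prolines, had 1 of the smallest adjusted p-values, at 243, 194, 76.7 and 287 CPM in control and 624, 753, 300.3 and 1019 CPM with Zfp488. Control replicate 3 was far below the other controls, and Zfp488 replicate 3 far below the other Zfp488 libraries (1.77 ± 0.13, adjusted p = 3.63e-05). Marker genes of fibroblasts, pericytes and endothelium moved in the same libraries, with 4 of 13 tested members higher and 1 lower (2 and 1 without the block, and 2 higher without control replicate 3 or Zfp488 replicate 3 or 4). Their summed level was 102 to 157 CPM in control and 136 to 185 CPM with Zfp488. Flt1, Tek, Anpep and Thbs1 stayed under 1 CPM in all 8 libraries. Of the 22 markers in this list only 13 had an identifier here, so the levels of the others are unknown. Col3a1 and Fn1 are members of that list, and its part in the matrix changes was not tested.

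Some enzymes that build surface sugars changed too. St8sia1, the enzyme that makes the ganglioside GD3 of immature glia, was read at 8.15, 10.4, 13.0 and 9.38 CPM in control and 3.44, 3.72, 6.29 and 2.56 CPM with Zfp488, with no overlap (-1.39 ± 0.16, adjusted p = 0.000335). St3gal1, a sialyltransferase of another linkage, rose by 1.20 ± 0.17 (adjusted p = 0.000899), and Chst8, a sulfotransferase, was at 1.90 to 3.89 CPM in control and 6.88 to 30.1 CPM with Zfp488 (2.79 ± 0.30, adjusted p = 0.000212).

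Ligands and receptors of growth factors changed on both sides of the signal. Of growth factors and receptors of the tyrosine kinase class 16 of 60 tested members rose and 7 fell (9 and 4 without the block), with a median of 0.12. Areg, a ligand of the EGF receptor, was read at 0.435, 0.574, 0.113 and 0.604 CPM in control replicates 1 to 4 and 3.20, 4.39, 2.17 and 3.83 CPM in the Zfp488 libraries. All Zfp488 libraries were above all controls (3.02 ± 0.24, adjusted p = 6.1e-05). Btc, another such ligand, was at 1.29 to 1.47 CPM in control and 4.01 to 9.46 CPM with Zfp488 (2.30 ± 0.23, adjusted p = 0.000149). The neurotrophin gene Bdnf (0.633 to 1.41 CPM in control and 2.11 to 3.17 CPM with Zfp488, 1.11 ± 0.20, adjusted p = 0.00326), named here after its values were seen, also rose.

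Among receptors, Ret, which transduces signals of the GDNF family, stood at 0.476, 0.873, 1.54 and 1.15 CPM in control and 2.83, 3.75, 9.08 and 9.40 CPM with Zfp488. The groups did not overlap, and replicates 3 and 4 were highest in both (2.58 ± 0.17, adjusted p = 2.35e-05). Musk, the kinase of the neuromuscular junction, was at 0.113 to 1.01 CPM in control and 1.28 to 11.8 CPM with Zfp488 (3.60 ± 0.21, adjusted p = 2.35e-05), and Ngfr, the p75 neurotrophin receptor, at 2.06 to 6.60 CPM in control and 14.0 to 37.5 CPM with Zfp488 (2.40 ± 0.25, adjusted p = 0.000202). The related Wnt receptors Ror1 and Ror2 moved apart: Ror1 rose by 1.02 ± 0.17 (adjusted p = 0.00196), while Ror2 was read at 32.7, 35.0, 44.0 and 38.1 CPM in control and 15.7, 11.2, 16.3 and 8.89 CPM with Zfp488 and fell without overlap (-1.55 ± 0.14, adjusted p = 0.000111). Fgfr3, an FGF receptor of glia, fell, with 707 to 1279 CPM in control and 526 to 785 CPM with Zfp488 (-0.68 ± 0.09, adjusted p = 0.000624), each Zfp488 library below its own control.

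Ngfr is also a marker of Schwann cells and neural crest. Of that list 6 of 17 tested members rose and 0 fell (3 and 0 without the block), and its summed level was 3734 to 4529 CPM in control and 6000.2 to 9969 CPM with Zfp488. Over the 14 members that no oligodendroglial list used here also holds, the sum was 1941 to 2612 CPM in control and 2096 to 2586 CPM with Zfp488. Egr2 (0.15 ± 0.18, adjusted p = 0.608), Sox2 (0.01 ± 0.08, adjusted p = 0.915) and Erbb3 (0.08 ± 0.08, adjusted p = 0.506) of this list did not pass, and Artn and Ncmap stayed under 1 CPM in all 8 libraries. Its part in the rises of Ngfr and Pmp22 was not tested.

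Other secreted signals changed as well. Within the TGF-beta family Tgfb3 was read at 29.6, 35.1, 30.8 and 35.3 CPM in control and 90.4, 170.3, 93.1 and 171 CPM with Zfp488 and Tgfb2 at 219, 188, 287 and 264 CPM in control and 134, 112, 156 and 158 CPM with Zfp488. Tgfb3 rose (1.93 ± 0.26, adjusted p = 0.000623) and Tgfb2 fell (-0.77 ± 0.06, adjusted p = 6.48e-05), neither with overlap. Of BMP, TGF-beta and Id genes 10 of 53 tested members rose and 12 fell (4 and 5 without the block), with 7 falls without control replicate 3. Ptch1, the hedgehog receptor, was read at 242, 204, 191 and 242 CPM in control and 138, 93.6, 97.4 and 80.0 CPM with Zfp488. It fell without overlap (-1.12 ± 0.13, adjusted p = 0.000334), while Gli1, Gli2 and Gli3, the transcription factors of the pathway, rose with the block only, by 1.75 ± 0.36 (adjusted p = 0.00622), 0.70 ± 0.12 (adjusted p = 0.00209) and 1.26 ± 0.23 (adjusted p = 0.00327), with adjusted p of 0.05004, 0.051 and 0.051 without it.

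Lpar3 was read at 0.517, 0.873, 1.47 and 2.69 CPM in control replicates 1 to 4 and 4.22, 8.68, 12.5 and 16.2 CPM in the Zfp488 libraries. Replicate 1 was lowest and replicate 4 highest in both groups, which did not overlap (2.98 ± 0.17, adjusted p = 2.35e-05). Adcyap1r1 stood at 13.8, 10.6, 15.7 and 10.4 CPM in control and 3.91, 2.60, 2.43 and 2.33 CPM with Zfp488, the largest fall at a mean of at least 5 CPM (-2.16 ± 0.15, adjusted p = 3.23e-05). Dusp1, a phosphatase that ends MAP kinase signals, was at 10.5 to 38.8 CPM in control and 64.3 to 176 CPM with Zfp488 (2.14 ± 0.29, adjusted p = 0.000648), and its relative Dusp4 rose by 1.09 ± 0.18 (adjusted p = 0.00173), while Myc fell (-0.51 ± 0.12, adjusted p = 0.00965). Cyp26b1, which breaks down retinoic acid, rose by 1.19 ± 0.08 (adjusted p = 3.23e-05) and the thyroid hormone receptor Thrb by 0.87 ± 0.08 (adjusted p = 0.000101). The chemokine gene Cxcl14 rose in every pair, with 7.87 to 44.1 CPM in control and 32.5 to 128 CPM with Zfp488 (1.89 ± 0.13, adjusted p = 3.23e-05, and 0.0621 without the block). Of axon guidance genes 15 of 70 tested members rose and 11 fell (6 and 1 without the block), with 6 falls without Zfp488 replicate 1 and 7 without control replicate 2 or Zfp488 replicate 2. Slit2 (1.18 ± 0.14, adjusted p = 0.000399), Slit3 (1.70 ± 0.22, adjusted p = 0.000552) and the ephrin receptor Epha4 (1.02 ± 0.09, adjusted p = 6.48e-05) rose.

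Genes of synaptic contact fell more often than they rose. Of synaptic and leucine-rich adhesion proteins 11 of 62 tested members rose and 20 fell (4 and 9 without the block), with a median of -0.18, and the rises numbered 7 without control replicate 3 or 4. Lrrtm4, a postsynaptic organizer, was read at 7.43, 7.94, 9.61 and 6.25 CPM in control and 3.27, 2.08, 2.67 and 1.22 CPM with Zfp488. Its groups did not overlap (-1.80 ± 0.17, adjusted p = 0.000123). Nlgn3, a neuroligin that oligodendroglia also make, fell, with 201 to 226 CPM in control and 122 to 162 CPM with Zfp488 (-0.60 ± 0.09, adjusted p = 0.00144), and so did Slitrk2 (-0.98 ± 0.11, adjusted p = 0.000259). Nrcam, a partner of the nodal proteins of axons, went the other way, at 34.3 to 67.0 CPM in control and 71.0 to 159.6 CPM with Zfp488 (1.20 ± 0.15, adjusted p = 0.000405). Among cadherins and protocadherins 4 of 54 tested members rose and 10 fell (2 and 3 without the block), with 6 falls without Zfp488 replicate 4. Pcdh20 (-1.10 ± 0.11, adjusted p = 0.00016) and Celsr2 (-0.72 ± 0.12, adjusted p = 0.00181) fell and Pcdh17 rose (0.76 ± 0.17, adjusted p = 0.00961). Shank3, a scaffold of excitatory synapses, fell as well (-0.80 ± 0.07, adjusted p = 8.27e-05).

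Receptors and channels followed no single direction. Of glutamate and GABA receptors 4 of 24 tested members rose and 7 fell (4 and 2 without the block), with 2 falls without control replicate 2, 3 without control replicate 3 or Zfp488 replicate 2 and 4 without control replicate 4 or Zfp488 replicate 4. Gria2, the AMPA receptor subunit that limits calcium entry, was read at 52.1, 62.5, 92.3 and 52.2 CPM in control and 34.4, 34.1, 51.6 and 21.9 CPM with Zfp488. Each Zfp488 library was below every control (-0.89 ± 0.11, adjusted p = 0.000497). Grin1, the obligatory NMDA receptor subunit, rose by 1.65 ± 0.30 (adjusted p = 0.00342) from under 1 CPM. Of potassium channels 6 of 51 tested members rose and 9 fell (4 and 1 without the block). Kcng1, a modifying subunit, stood at 2.75, 5.99, 7.30 and 7.33 CPM in control and 7.82, 24.3, 42.9 and 37.1 CPM with Zfp488, replicate 1 lowest in both groups and no overlap (2.14 ± 0.15, adjusted p = 3.63e-05). Atp2a3, a calcium pump of the endoplasmic reticulum, rose, with 7.20 to 29.3 CPM in control and 34.7 to 207 CPM with Zfp488 (2.64 ± 0.29, adjusted p = 0.000251), the sodium channel Scn1a by 1.89 ± 0.21 (adjusted p = 0.00025), and the calcium channel Cacna1c fell by 0.81 ± 0.14 on the log2 scale (adjusted p = 0.00252).

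Called genes of stress responses were mostly rises, though most members of these lists were not called. Of p53 targets 10 of 33 tested members rose and 1 fell (7 and 0 without the block), and in the list of integrated stress response and unfolded protein genes 11 of 37 tested members rose and 1 fell (9 and 0 without the block). The shares that rose were 30.3% and 29.7%, against 14% of all genes tested, and the medians 0.06 and 0.16. Cdkn1a, the p21 inhibitor of cyclin-dependent kinases, was read at 53.0, 56.9, 47.1 and 78.6 CPM in control and 112, 156, 162 and 218 CPM with Zfp488. All Zfp488 libraries were above all controls (1.42 ± 0.18, adjusted p = 0.000447). Gadd45a, a DNA damage response gene, rose by 1.67 ± 0.20 (adjusted p = 0.000363), and Chac1, which degrades glutathione, by 1.36 ± 0.17 (adjusted p = 0.000405). Of heat shock proteins and their co-chaperones 17 of 73 tested members rose and 1 fell (9 and 0 without the block). The rises included Dnajb4 (0.82 ± 0.08, adjusted p = 0.00011), Hspb6 (0.98 ± 0.14, adjusted p = 0.00075) and Hspa4l (0.66 ± 0.09, adjusted p = 0.000716). The share of this list called in either direction, 24.7%, was near the 24.1% of all genes tested, with 23.3% higher and a median of 0.08. The fall of the p53 list was lost without control replicate 1, 3 or 4 or Zfp488 replicate 2 or 3, that of the heat shock list without any library but control replicate 3 or Zfp488 replicate 2, and the stress response list had 2 falls without control replicate 2 or Zfp488 replicate 1.

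Interferon response and antigen presentation genes rose without a called fall: 25 of 46 tested members rose and 0 fell (16 and 0 without the block), with 14 rises without Zfp488 replicate 3, 16 without control replicate 3 or Zfp488 replicate 4, and a median of 0.45. Ifitm3 was read at 0.414, 0.624, 0.158 and 0.458 CPM in control and 2.02, 2.62, 0.831 and 3.78 CPM with Zfp488, with no overlap and replicate 3 lowest in both groups (2.49 ± 0.28, adjusted p = 0.000271). Oas1a, an antiviral synthetase, rose by 1.32 ± 0.16 (adjusted p = 0.000433). Of microglia and macrophage genes 2 of 8 tested members rose, Cd74 (0.0499 to 0.271 CPM in control and 0.356 to 0.716 CPM with Zfp488) and Csf1r (0.181 to 0.333 CPM in control and 0.371 to 0.738 CPM with Zfp488), Csf1r not without Zfp488 replicate 2 (adjusted p = 0.0507). The summed level of this list was 79.4 to 98.6 CPM in control and 84.4 to 95.9 CPM with Zfp488, and Laptm5, Csf1r and Cd74 were under 1 CPM in all 8 libraries. Only 8 of its 21 markers had an identifier here, so the levels of the others are unknown.

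Of lysosomal genes 12 of 42 tested members rose and 3 fell (6 and 1 without the block). Lipa, the acid lipase that frees cholesterol, was read at 197, 184, 157 and 258 CPM in control and 438, 838, 427 and 1000.5 CPM with Zfp488. The groups did not overlap (1.69 ± 0.16, adjusted p = 0.000123). The protease gene Ctsl rose by 1.53 ± 0.19 (adjusted p = 0.000405) and the cholesterol carrier Npc2 by 0.56 ± 0.06 (adjusted p = 0.00033). Of glycolysis and lactate genes 9 of 30 tested members rose and 1 fell (3 and 0 without the block), with 4 or 5 rises and 0 falls without control replicate 3 or 4 or Zfp488 replicate 3 or 4. Of genes of cholesterol synthesis and uptake 8 of 27 tested members rose and 1 fell (1 and 1 without the block), with 3 rises without Zfp488 replicate 2, 4 without control replicate 2 or 3 and 5 without Zfp488 replicate 3. Fatty acid synthesis and elongation was balanced: 4 of 24 tested members rose and 4 fell (1 and 1 without the block), with a median of -0.11, 2 rises without control replicate 2 or Zfp488 replicate 3 and 2 falls without control replicate 2 or Zfp488 replicate 1. The glucose transporter Slc2a1 rose by 0.66 ± 0.09 (adjusted p = 0.00073) and the lactate transporter Slc16a1 by 0.68 ± 0.10 (adjusted p = 0.000836), and Tm7sf2, a reductase of cholesterol synthesis, by 0.79 ± 0.10 (adjusted p = 0.000564). Glul, glutamine synthetase, stood at 306, 319, 257 and 275 CPM in control and 579.6, 876, 954 and 1296 CPM with Zfp488 (1.62 ± 0.17, adjusted p = 0.000191), without overlap.

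Glul is also a marker of astrocytes. Of the astrocyte list 5 of 20 tested members rose and 5 fell (3 and 2 without the block, and 3 falls without control replicate 2 or Zfp488 replicate 2), and its sum was 4098 to 6686 CPM in control and 4660.4 to 6608 CPM with Zfp488. The gap junction gene Gja1 rose by 1.49 ± 0.31 (adjusted p = 0.00581), the glutamate transporter Slc1a3 fell (-0.77 ± 0.17, adjusted p = 0.00768), and Gfap did not pass (0.02 ± 0.24, adjusted p = 0.964). Of neuron genes 6 of 20 rose and 2 fell (3 and 1 without the block, and 1 fall without control replicate 2 or 3 or Zfp488 replicate 3), with a sum of 550.4 to 867 CPM in control and 742 to 954 CPM with Zfp488. Tubb3 and Elavl3 (0.92 ± 0.13, adjusted p = 0.000989) rose, the vesicle protein Syt1 fell (-0.83 ± 0.11, adjusted p = 0.000679), and Syn2, Gad2 and Dcx were under 1 CPM in all 8 libraries. Their part in the changes above was not tested.

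The genes called with Zfp488 were then read in primary oligodendroglia, where differentiating and proliferating libraries share no library with the CG4 comparison and 10439 of 12310 genes tested were called (84.8%), 5111 higher (41.5%) and 5328 lower (43.3%). Of 1775 genes higher with Zfp488 and tested in both, 61.8% were higher and 29.4% lower in primary differentiation. Of 1281 genes lower with Zfp488, 30.8% were higher and 53.3% lower. Over all 11722 genes tested in both, 42.7% were higher and 42.0% lower. Called in both were 2697 genes, which is 88.3% of the Zfp488 calls and 27.2% of the primary calls among the genes tested in both, and 1780 of them (66.0%) moved the same way. Among those that changed by at least 1 on the log2 scale with Zfp488, 227 moved the same way and 182 the opposite way. Across the 11722 genes the 2 log2 fold changes had a Pearson r of 0.16, a description over genes, which are not independent replicates.

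**Figure D4:**
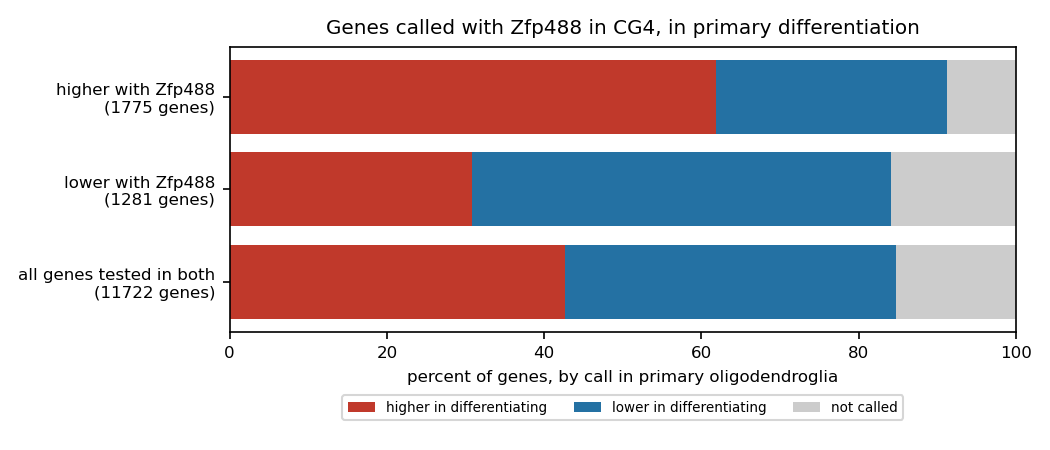
Percent of genes called higher (red), lower (blue) or not called (grey) in differentiating against proliferating primary oligodendroglia, for genes higher with Zfp488, lower with Zfp488 and all genes tested in both. The red share is 61.8% in the top bar, 30.8% in the middle bar and 42.7% in the bottom bar.

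Some named genes moved the same way in both sets. In primary differentiation Opalin differed by 6.18 ± 0.21, Gpr37 by 7.27 ± 0.08, Cdc42ep2 by 6.78 ± 0.15, Ret by 6.43 ± 0.53 and Tubb4a by 3.58 ± 0.09, all rises. Col4a1 (-2.69 ± 0.04), Adcyap1r1 (-1.96 ± 0.08), St8sia1 (-1.74 ± 0.08) and Nkx2-2 (-1.82 ± 0.25) fell there as with Zfp488. Other genes went against it, with Col6a1 at -4.16 ± 0.22, Col3a1 at -3.64 ± 0.18, Areg at -4.33 ± 0.53 and Bdnf at -3.35 ± 0.21, all falls. Padi2, a protein deiminase of oligodendrocytes, fell with Zfp488, at 499 to 893 CPM in control and 279.7 to 479.7 CPM with Zfp488 (-0.90 ± 0.06, adjusted p = 2.35e-05), and rose in primary cells (3.46 ± 0.05), as did Kank1 (3.09 ± 0.04), Fgfr3 (3.67 ± 0.05), Tgfb2 (3.71 ± 0.09) and Apod (3.79 ± 0.17).

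Cells with added Nkx2.2 share the control libraries, so their values are set beside those of Zfp488 and the difference was tested directly. Of 14811 genes 6276 differed between the factors (42.4%), 3264 higher (22%) and 3012 lower (20.3%) with Zfp488. Against control, 3876 genes (26.2%) were called with Nkx2.2. Some lists moved much alike with both factors. With Nkx2.2, synaptic and leucine-rich adhesion proteins had 11 rises and 21 falls and lysosomal genes 14 and 4. Integrated stress response and unfolded protein genes had 9 and 1. Other lists did not: structural myelin proteins had 3 rises and 4 falls with Nkx2.2, and cadherins and protocadherins 16 and 5. Mbp was at 0.85 ± 0.11 with Zfp488 and -0.41 ± 0.11 with Nkx2.2 (direct difference 1.27 ± 0.11, adjusted p = 1.24e-05). Some genes had opposite signs. Lpar3 was at 2.98 ± 0.17 and -1.12 ± 0.21 (4.10 ± 0.19, adjusted p = 3.35e-07) and Nrcam at 1.20 ± 0.15 and -1.15 ± 0.15 (2.36 ± 0.16, adjusted p = 2.62e-06). Apod was at -0.85 ± 0.18 and 1.57 ± 0.18 (-2.42 ± 0.19, adjusted p = 6.41e-06). Lamb2 rose by more with Nkx2.2, at 1.41 ± 0.16 and 2.95 ± 0.17 (-1.54 ± 0.16, adjusted p = 3.92e-05). So did Gpr37, at 1.40 ± 0.11 and 2.69 ± 0.11 (-1.29 ± 0.10, adjusted p = 9.35e-06), and Fn1, at 1.86 ± 0.20 and 3.26 ± 0.21 (-1.40 ± 0.19, adjusted p = 0.000225). For Enpp6 the factors did not differ detectably (1.32 ± 0.19 and 1.27 ± 0.19, direct difference 0.05 ± 0.18, adjusted p = 0.848), nor for Plekhb1 (-0.76 ± 0.09 and -0.76 ± 0.09, 0.00 ± 0.09, adjusted p = 0.98).

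**Figure D5:**
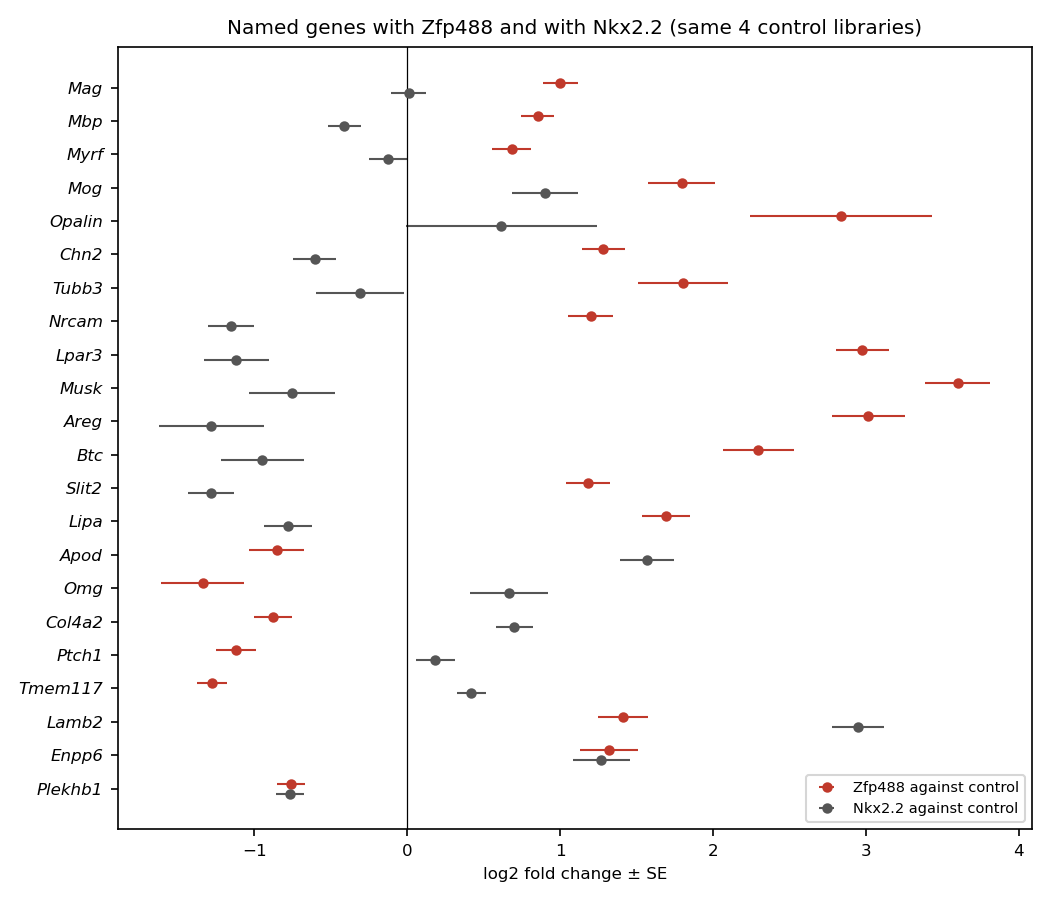
Log2 fold change ± SE over control for 22 named genes with Zfp488 (red) and with Nkx2.2 (grey), which share the same 4 control libraries. Lpar3 and Nrcam lie on opposite sides of 0, and Enpp6 and Plekhb1 nearly coincide.

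The authors' deposited table for Zfp488 calls 2023 of 14441 genes at an adjusted p under 0.05, 1307 higher and 716 lower. Of the calls in the authors' deposited table, 1967 were also called here with the block, and all 1967 had the same sign. They make up 55.0% of the calls with the block, and 1313 calls were shared without it. The authors' table is of the same comparison in this series, so the shared calls are no independent evidence.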

How the data were processed

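The authors deposited raw read counts per gene, 1 file per library. Per the submitters' processing notes, the build was rn6 and the tools included STAR 2.5.2b, Trimmomatic 0.36 and Subread 1.5.2 (featureCounts). The sources used here give no annotation release, strand setting or handling of multiple matches, which leaves levels uncertain for genes that overlap, run antisense or have near-identical copies. The authors also deposited DESeq2 tables of log2 fold changes and p-values for Zfp488 and for Nkx2.2. Both gave gene names (14690 identifiers, with 21 date-like names dropped), and the first was compared with the calls made here. Their 16 per-library columns were not used.

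The 12 differentiating CG4 libraries were fitted together by the two-sided quasi-likelihood test of edgeR 4.0.16 (R 4.3.3), after TMM scaling and filterByExpr, with the replicate number as a block and 6 residual degrees of freedom. SE is the log2 fold change over the root of F. The primary libraries were fitted without a block. Deviations of same-numbered control and Zfp488 libraries from their group means correlated at 0.57, 0.28, 0.69 and 0.19, all above the minimum of 0.1. Libraries of unlike number correlated at -0.56 to 0.15, so passing that minimum does not by itself show pairing. The replicate numbers were used as the block, although no label states what a number stands for. Replicates differed by more than counting noise. The procedure was also run on simulated data in which libraries of the same number shared an effect. That run assumes the pairing and cannot test it in the real libraries.

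Members and the 56 gene lists were chosen with earlier results of these data known. Named genes are a panel, the 20 largest changes per direction (at least 5 CPM, no overlap), the 10 smallest adjusted p-values, up to 5 called members per list and direction and all members of the myelin, transcription factor and other cell type lists; the text gives a part of these, and Bdnf was added after its values were seen. Some genes and 1 list are not reported here. The 3 proliferating CG4 libraries are not analysed here. Alternatives were no block, the 8 compared libraries alone, RLE size factors, no filter, DESeq2 1.42.0 and leaving out each library, with each replicate number left out as an addition after the data were seen.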

Additional observations from a re-analysis of the deposited data

Results flagged for a closer look

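In 11 of 326 groups of 4 libraries examined, 1 library lay far from the other 3, with a gap above Dixon's 95% critical share of the group's range. Chance gives about 1 in 20 such groups. In the control group replicate 3 stood apart for Tcf4 (69.9 CPM), Bdnf (0.633 CPM), Tspan2 (266 CPM) and Sema5a (245 CPM). Control replicate 1 stood apart for Sox10 (1507 CPM), Ror1 (3.39 CPM) and Pllp (0.890 CPM), and control replicate 4 for Fbln7 (19.2 CPM), Csf1r (0.333 CPM) and Orai2 (16.9 CPM). In the Zfp488 group replicate 1 stood apart for St5 (46.4 CPM).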

How the results depend on the processing

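Without the replicate block, the calls with Zfp488 numbered 1339 (873 higher, 466 lower) in place of 3576, and the share that was higher 65.2% in place of 57.9%. Without it, 3741 genes differed between Zfp488 and Nkx2.2 (1966 higher, 1775 lower), and 1056 genes were called both with Zfp488 and in primary cells, 710 in the same direction. With 1 library left out, or all 3 CG4 libraries of 1 number (added after seeing the data), Zfp488 calls ranged from 1537 to 3284, higher genes from 997 to 1957, lower genes from 540.0 to 1327, genes also called in primary cells from 1209 to 2516 and those in the same direction from 836 to 1655. The lowest of each came without all libraries of replicate 2. Of single libraries, leaving out Zfp488 replicate 2 (2169 calls, 783 lower) or control replicate 3 (2236 and 851) moved the total most, and lower genes also numbered 979 without control replicate 2 and 944 without Zfp488 replicate 4. The cause was not tested. RLE size factors gave 3587 calls, no filter 3411, the 8 compared libraries alone 3417 and DESeq2 3833. For the 163 named genes, 0 called log2 fold changes of Zfp488 over control changed sign under the alternatives run; signs of single genes against Nkx2.2 or in primary cells were not examined. Which direction held more calls did turn in some lists. Without the block, potassium channels had 4 rises and 1 fall (6 and 9 with it) and glutamate and GABA receptors 4 and 2 (4 and 7). Proteoglycans and glycosaminoglycan enzymes had 3 and 6 (13 and 8). The BMP, transcription factor, collagen and axon guidance lists turned when some libraries were left out. Of 151 named genes called, 135 were also called without the block and 149 in all 8 fits without 1 library; the exceptions were Mobp (lost in 7 of the 8) and Csf1r (lost without Zfp488 replicate 2). At low CPM, counting error limits what could be called.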
